A study of Homo sapiens with 6 samples.

Results

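Transcripts of the MAP kinase cascade and of the phosphatases and inhibitors that restrain it were measured in HK2 cells that carried a short hairpin RNA (shRNA) against PGC-1alpha or against GFP. HK2 is an established human kidney cell line of proximal tubule origin. The genes were taken by symbol: every gene named on the platform as MAPK, MAP2K, MAP3K, MAP4K, DUSP, SPRY or SPRED followed by a digit, apart from MAP3K8, which the rule left out, with the probe set of highest mean standing for a gene. This gave 72 genes of 14884 named genes, or 80 probe sets of 53617. Apart from the mean over all 6 arrays that picked the probe set, no measured value entered the rule, although the genes were chosen when results of these data were already known. Of the 72 genes, 67 code for protein and 5 are noncoding transcripts or pseudogenes (MAPK8IP1P2, MAP3K14-AS1, MAP4K3-DT, MAP2K4P1 and MAP3K20-AS1). SPRED genes had no probe set named here.

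The knockdown group was HK2 cells transduced with a lentivirus carrying pLKO.1 shPGC-1alpha, and the control group was HK2 cells transduced with a lentivirus carrying pLKO.1-shGFP. Both groups were grown in DMEM with fetal bovine serum and selected with puromycin, and total RNA was taken on day 5 after transduction, with selection over for 24 hours. Each group held 3 arrays, labelled biological replicates 1 to 3. The labels name no separate cultures or transductions, and do not say whether more than 1 hairpin was used, so p-values measure the spread between these arrays. PPARGC1A, the gene of PGC-1alpha, had 0 probe sets named here, and the knockdown itself was therefore not analysed here.

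MAP kinases are serine/threonine kinases at the end of a relay in which a MAP4K or a small GTPase turns on a MAP3K, the MAP3K phosphorylates a MAP2K, and the MAP2K phosphorylates the MAP kinase on a threonine and a tyrosine. The ERK arm carries growth factor signals, while the JNK and p38 arms answer stress and cytokines. Dual-specificity phosphatases (DUSPs) remove both phosphates, and many of them are themselves induced by the kinases they silence. In the kidney tubule these arms are known for their part in the response to injury and in repair. PGC-1alpha is a coactivator of transcription known for mitochondrial biogenesis, and p38 is known to phosphorylate it.

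Of the 72 genes, 17 were higher and 12 were lower in shPGC-1alpha cells at an adjusted p under 0.05 (limma, Benjamini-Hochberg over all 14884 named genes). Genes moved in both directions among the MAP3K, MAP2K, MAP kinase and phosphatase genes. The kinase MAP3K5 was 3.34-fold higher and MAP3K21 was 2.42-fold lower. The p38 activator MAP2K3 was 1.74-fold higher, whereas MAP2K6, which also encodes a p38 activator, was 2.02-fold lower. Among the phosphatases, DUSP5, DUSP10, DUSP7 and DUSP8 rose while DUSP1 fell. The 29 genes make 40.3% of the 72, beside 21.8% of all named genes, and the split was 23.6% higher and 16.7% lower, beside 9.58% and 12.2%. Values are log2 RMA levels as deposited, and differences are shPGC-1alpha minus shGFP.

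Counts depended on the arrays used. With any 1 array left out, 8 to 12 genes were higher and 8 to 11 lower, or 22.2% to 29.2% of the 72, beside 15.6% to 17.3% of all named genes. The count of higher genes was 10 without shPGC-1alpha replicate 1, 11 without its replicate 2, 9 without its replicate 3, 10 without shGFP replicate 1, 12 without its replicate 2 and 8 without its replicate 3. The genes MAP3K5, MAP3K13, MAP3K4, MAP3K6, MAP3K7, MAP3K21, MAP2K3, MAP2K6, MAPK6, MAP4K5, DUSP1, DUSP5, DUSP7, DUSP10 and DUSP18, 15 in all, stayed past the threshold under each of the 14 alternatives run, and 14 were lost in at least 1. Of all called genes 44.0% were higher, and 56.5% were with each array centred on its median; for the 72 genes these shares were 58.6% and 64.3%. The median log2 difference of the 72 genes was 0.01, beside -0.02 over all named genes. For 35 of the 72 genes (48.6%) every array of one group lay above every array of the other, beside 38.7% of all named genes. Their probe sets were brighter than most, with a median level of 6.93 beside 6.15, and brighter genes passed more often: at or above the 20th percentile of the named genes, 4.43, 42.6% of 68 cascade genes passed, beside 26.2% of 11907 named genes.

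**Figure D1:**
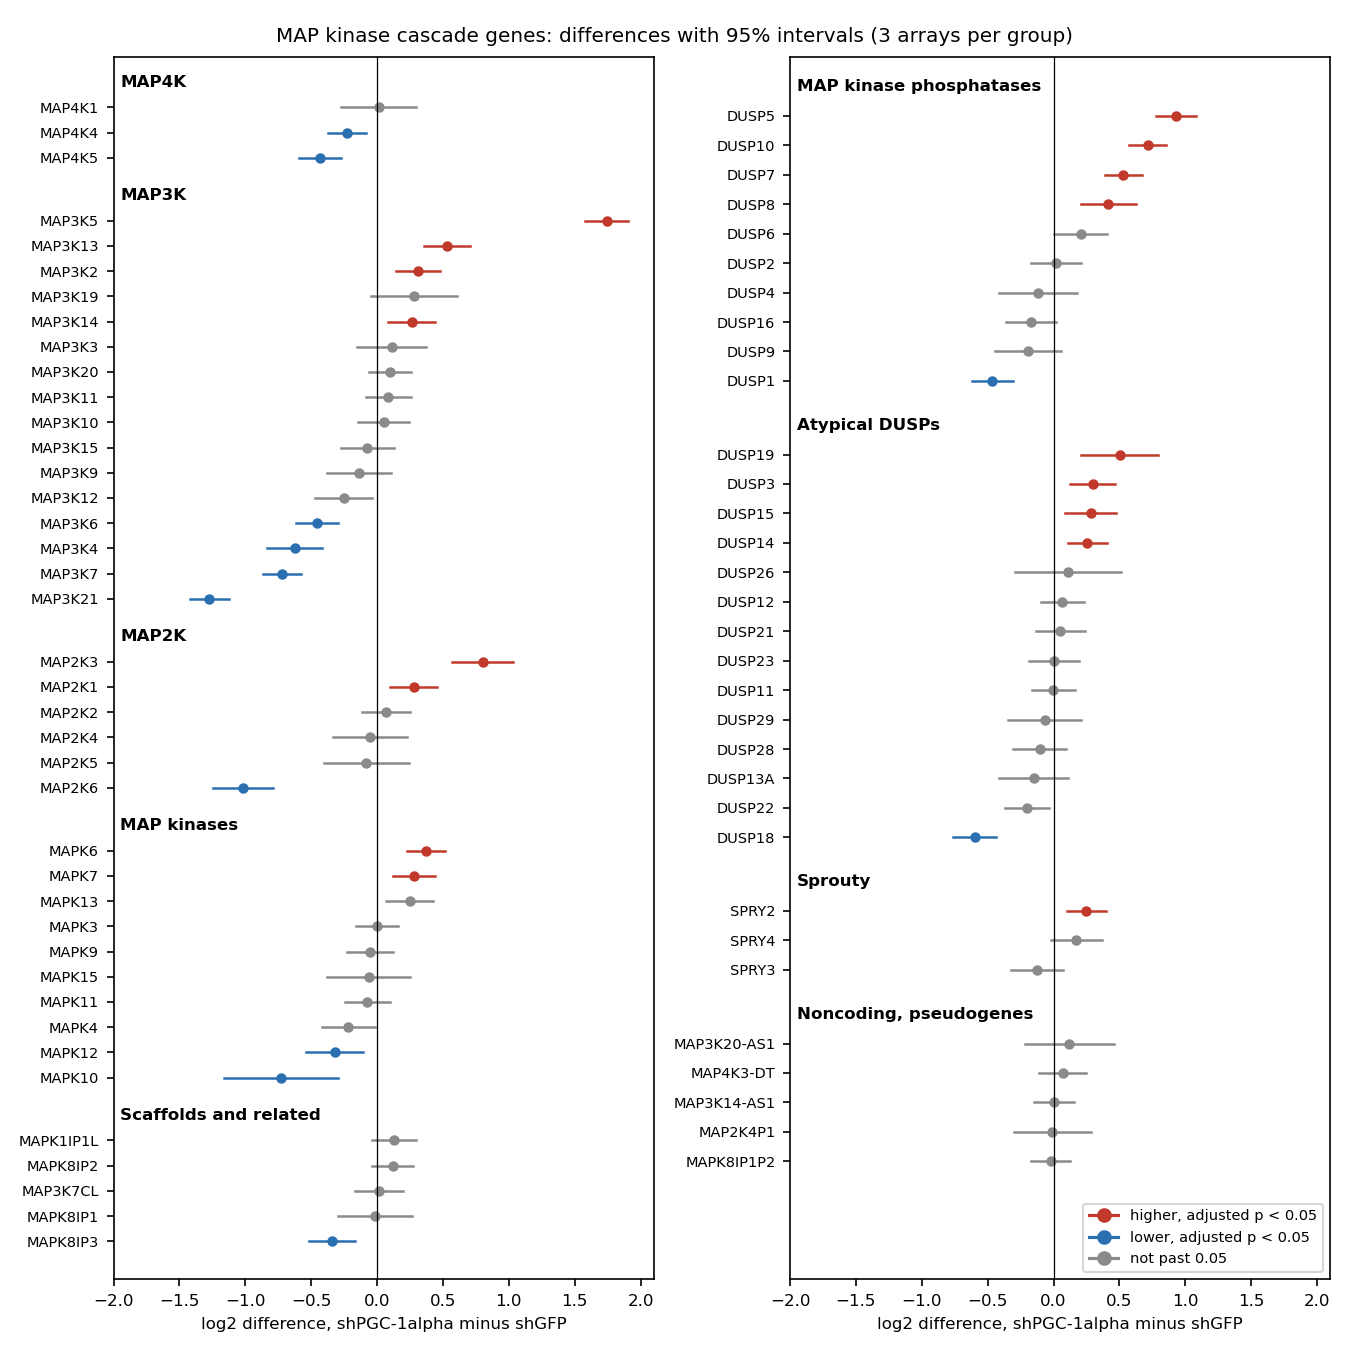
Log2 difference (shPGC-1alpha minus shGFP, x axis) of each of the 72 genes, grouped by role, with points at the estimate and bars for the 95% limma interval (3 arrays per group). Red marks the 17 genes higher and blue the 12 lower at an adjusted p under 0.05, and MAP3K5, at 1.74, and MAP3K21, at -1.27, lie at the ends.

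The labelled cell type was checked against markers. Measured were 7 of 14 listed proximal tubule markers, 9 of 10 epithelial, 2 of 7 fibroblast, 5 of 8 leukocyte and 4 of 6 endothelial markers. The marker counts below stand beside 9.58% of all named genes higher and 12.2% lower. The renal transcription factor PAX8 had a mean of 11.82 in shPGC-1alpha cells and 11.44 in shGFP cells, while the apical receptors of the proximal tubule LRP2 and CUBN lay below 4.43 in both groups, at 4.0 and 3.90 in shPGC-1alpha cells, against 3.94 and 3.95 in shGFP cells. Of 7 proximal tubule markers 1 rose (PAX8) and 1 fell (MME), at mean levels of 6.08 to 6.19 in shPGC-1alpha cells, against 6.11 to 6.26 in shGFP cells. Of 9 epithelial markers 0 rose and 6 fell, and their mean level per array was 6.71 to 6.85 in shPGC-1alpha cells, against 7.19 to 7.26 in shGFP cells. The fibroblast-associated LUM and DCN, 2 of 2 measured, both rose, with a mean level of 6.92 to 7.04 in shPGC-1alpha cells, against 6.13 to 6.22 in shGFP cells. DCN was dim, with means of 4.63 in shPGC-1alpha cells and 3.80 in shGFP cells. Of 5 leukocyte markers 1 rose (CD68) and 1 fell (CSF1R), at mean levels of 6.62 to 6.73 in shPGC-1alpha cells, against 6.53 to 6.66 in shGFP cells, and of 4 endothelial markers 0 passed, at 4.58 to 4.68 in shPGC-1alpha cells, against 4.58 to 4.81 in shGFP cells. The epithelial and fibroblast-associated markers moved with the groups in the same arrays as every gene below, and their part in those results was not tested. In bulk RNA, fewer cells with a transcript and less of it per cell cannot be told apart. RMA values carry no detection calls, so 4.43 serves only as a guide to dim signal, and DUSP4, DUSP21, MAP3K19 and MAP3K20-AS1 had means below it.

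Promoter sequence was set beside these differences. RefSeq's table (GRCh38.p14) held a full promoter of 300 bases, from 250 before to 50 after a gene's start, for 60 of the 72 genes. Missing were DUSP12, DUSP13A, DUSP26, DUSP4, DUSP5, MAP2K4P1, MAP3K15, MAP3K20-AS1, MAP3K7CL, MAPK15, MAPK8IP1 and MAPK8IP1P2. Motifs were searched on both strands in the first start listed per gene, which was the outermost start of the annotated gene for 51 of the 60 genes and lay inside the gene for 9. The cyclic AMP response element, TGACGTCA, the site of CREB and ATF factors, was found in 2 of 16 promoters of higher genes, 3 of 12 of lower genes and 0 of 32 of genes not called, beside 1.98% of 27305 promoters and 2.59% of 15843 of protein-coding genes. Counting any listed start gave the same 5 genes, which are DUSP1, DUSP8, MAP3K13, MAPK10 and MAPK8IP3, beside 2.25% of all genes. For DUSP1, MAP3K13 and MAPK8IP3 the listed start is the outermost one, whereas it lies 577 bases inside the annotated gene for DUSP8 and 234021 bases inside it for MAPK10, so the elements of DUSP8 and MAPK10 are not upstream of the whole gene. The stretches that follow are shown because they hold that element, in capitals, upstream of 1 gene that rose and 2 that fell. They are 60 bases each, 5′ to 3′ on the gene's strand. DUSP1 lies at chr5:172771287-172771346 (minus strand), MAP3K13 at chr3:185282831-185282890 (plus strand) and MAPK8IP3 at chr16:1706062-1706121 (plus strand).
DUSP1, lower: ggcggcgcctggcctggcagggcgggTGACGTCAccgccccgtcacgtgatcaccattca
MAP3K13, higher: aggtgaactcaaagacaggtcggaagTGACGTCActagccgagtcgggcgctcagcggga
MAPK8IP3, lower: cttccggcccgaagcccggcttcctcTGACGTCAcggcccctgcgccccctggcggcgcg

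The element begins 125 bases before the start of DUSP1, 104 before that of MAP3K13 and 107 before that of MAPK8IP3. The AP-1 motif, TGANTCA, bound by FOS and JUN proteins that the cascade controls, was in 1 of 60 promoters, that of MAP2K3. It was present in 7.76% of all promoters and 5.75% of those of protein-coding genes. Counting any listed start, it was in 3 (MAP2K3, MAPK10 and SPRY3), beside 9.37%. The match of MAP2K3 is printed in capitals, from chr17:21284644-21284703 (plus strand), because MAP2K3 had the largest increase among the MAP2K genes. An NF-kB-like motif, GGNNNTTCC, was in 1 of 16 promoters of higher genes, 5 of 12 of lower genes and 11 of 32 of genes not called, beside 20.1% of all promoters. With any listed start these counts were 3, 5 and 12, beside 23.5%. The ETS motif CCGGAAGT was in 0 of 16, 2 of 12 (MAP3K7 and MAPK8IP3) and 0 of 32, beside 4.44%, and in MAPK8IP3 it overlaps the NF-kB-like match. With any listed start these counts were 0, 2 and 1, beside 4.95%. The E-box CACGTG was in 0 of 16, 2 of 12 and 3 of 32, beside 7.43%, and with any listed start in 0, 2 and 4, beside 8.77%. The response element of ERR receptors, TCAAGGTCA, which are partners of PGC-1alpha, was in 0 of 60 by either count, beside 0.359% of all promoters, or 0.432% with any listed start. The promoters had a median GC content of 71.5% for higher genes, 70.8% for lower genes and 72.8% for those not called. It was 58.3% over all promoters and 62.7% for protein-coding genes, and the motif shares were not adjusted for base composition. Of promoters of protein-coding genes, 21.7% held the NF-kB-like motif, 6.19% the ETS motif, 8.88% the E-box and 0.24% the ERR element. These matches are descriptions of sequence.
MAP2K3, higher: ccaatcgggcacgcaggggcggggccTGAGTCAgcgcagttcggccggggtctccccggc

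At the top of the relay, the 3 genes measured under a MAP4K symbol were lower or not called. MINK1 and TNIK, kinases of the same family under other symbols, are not among the 72 genes. They went opposite ways, at 0.53 (limma adjusted p 0.00552) and -0.33 (limma adjusted p 0.0171). MAP4K5, a Ste20-family kinase that activates JNK signalling, had 9.34, 9.33 and 9.30 in shPGC-1alpha replicates 1 to 3, against 9.84, 9.72 and 9.70 in shGFP replicates 1 to 3. Every shPGC-1alpha array lay below every shGFP array, and the log2 difference was -0.43 (SE 0.07, limma adjusted p 0.00379). MAP4K4, a related kinase of JNK signalling and cell migration, had 8.68, 8.62 and 8.60 in shPGC-1alpha cells, against 8.89, 8.85 and 8.85 in shGFP cells, a difference of -0.23 (SE 0.06, limma adjusted p 0.0351). Its groups did not overlap either, but the gap was small, and the call was lost with any 1 of the 6 arrays left out (limma adjusted p 0.0600 to 0.0936) and with each array centred on its median. The third gene with a MAP4K symbol, MAP4K1, stood at 0.01 (95% interval -0.28 to 0.30).

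The MAP3K tier held the largest differences in both directions. Of 16 genes, 4 rose, 4 fell and 8 did not pass. MAP3K5 encodes ASK1, which responds to oxidative stress and activates the JNK and p38 arms. Its level was 9.06, 8.90 and 8.99 in shPGC-1alpha replicates 1 to 3, against 7.24, 7.22 and 7.27 in shGFP replicates 1 to 3. The groups stood far apart and the control arrays lay within 0.05 of each other, and the difference of 1.74 (SE 0.07, 95% interval 1.58 to 1.90, limma adjusted p 2.1e-05), or 3.34-fold, was well beyond the replicate spread. MAP3K6 encodes ASK2, which forms complexes with ASK1, and it went the other way. It had 6.68, 6.58 and 6.55 in shPGC-1alpha cells, against 7.10, 7.01 and 7.06 in shGFP cells, all 3 lower, a difference of -0.46 (SE 0.07, limma adjusted p 0.00324).

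MAP3K21, also called MLK4, a mixed-lineage kinase, had the largest decrease of the 72 genes. Its level was 7.60, 7.60 and 7.56 in shPGC-1alpha cells, against 8.93, 8.84 and 8.81 in shGFP cells, with a SD of 0.0205 in shPGC-1alpha cells and 0.0624 in shGFP cells (n = 3 each). The arrays of each group lay close together with a wide gap between groups, and the difference was -1.27 (SE 0.06, 95% interval -1.42 to -1.12, limma adjusted p 5.1e-05). Its close relatives MAP3K9, MAP3K10 and MAP3K11 stood at -0.14, 0.05 and 0.09 and did not pass. In the wider mixed-lineage family, MAP3K12 and MAP3K20 stood at -0.25 and 0.10 and did not pass either. MAP3K13, also of that wider family, rose by 0.53 (limma adjusted p 0.00239). MAP3K7 encodes TAK1, which links receptors for interleukin-1, TNF and TGF-beta to NF-kB, JNK and p38. It had 8.96, 8.99 and 8.91 in shPGC-1alpha cells, against 9.70, 9.68 and 9.64 in shGFP cells. Again no array of one group reached the other, and the difference was -0.72 (SE 0.06, limma adjusted p 0.000323), or 1.65-fold lower. Transcripts of the TAK1-binding proteins TAB1, TAB2 and TAB3 stood at -0.12, 0.13 and 0.11 and did not pass. MAP3K4, or MEKK4, which GADD45 proteins activate, had 8.05, 7.96 and 7.95 in shPGC-1alpha cells, against 8.78, 8.49 and 8.58 in shGFP cells. All 3 were lower, and the difference was -0.62 (SE 0.09, limma adjusted p 0.00275).

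MAP3K13, MAP3K2 and MAP3K14 also rose. MAP3K13, the leucine zipper kinase LZK of the JNK arm, whose promoter is among those shown, had 8.03, 7.98 and 7.91 in shPGC-1alpha cells, against 7.47, 7.51 and 7.34 in shGFP cells. Each shPGC-1alpha array was above each control, by 0.53 in the mean (SE 0.07, limma adjusted p 0.00239). MAP3K2, or MEKK2, which feeds the ERK5 arm, had 9.09, 9.12 and 9.16 in shPGC-1alpha cells, against 8.84, 8.90 and 8.72 in shGFP cells, a difference of 0.31 (SE 0.07, limma adjusted p 0.0200). MAP3K14, or NIK, the kinase of the noncanonical NF-kB pathway, had 7.90, 7.91 and 8.0 in shPGC-1alpha cells, against 7.62, 7.79 and 7.62 in shGFP cells, a difference of 0.26 (SE 0.08, limma adjusted p 0.0472). The groups did not overlap for these genes, though for MAP3K14 the closest arrays were 0.10 apart. The call of MAP3K2 was lost without shPGC-1alpha replicate 2 or 3 or shGFP replicate 3 (limma adjusted p 0.0559 to 0.0690), and that of MAP3K14 if any 1 array other than shGFP replicate 2 was left out (0.0822 to 0.140) and with quantile normalization repeated. MAP3K14-AS1, a transcript that overlaps MAP3K14, stood at 0.00. The 8 MAP3K genes that did not pass lay between -0.25 (MAP3K12) and 0.28 (MAP3K19), and the brightest probe sets among them were those of MAP3K20, at 0.10 (95% interval -0.06 to 0.26), and MAP3K9 (95% interval -0.38 to 0.10).

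**Figure D2:**
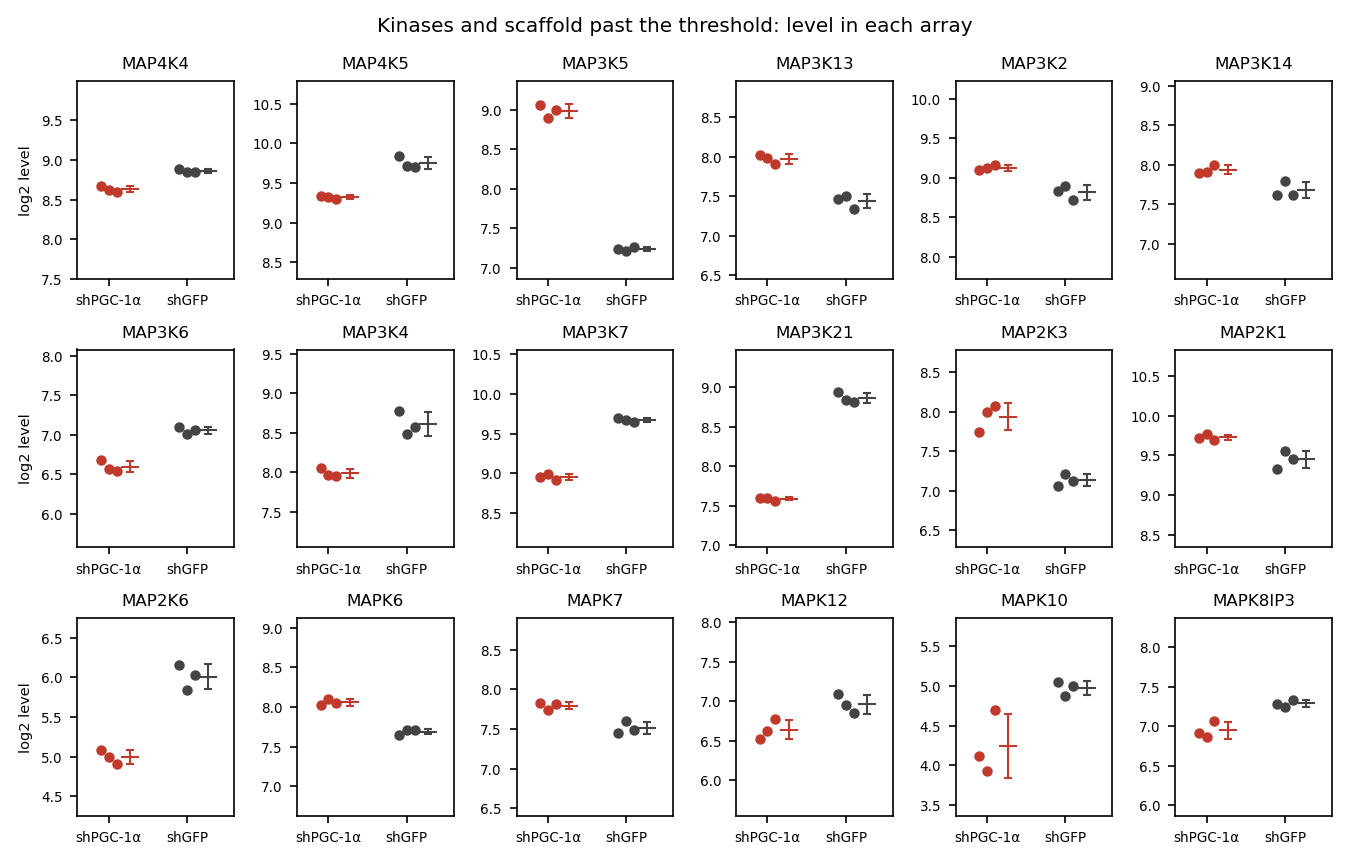
Log2 RMA level (y axis, with the same span in every panel) in each array for the 17 kinase genes past the threshold and the scaffold gene MAPK8IP3, with shPGC-1alpha arrays in red on the left and shGFP arrays in grey on the right. Points are replicates 1 to 3 and the bar beside them is the mean with the SD (n = 3), and in every panel the 2 groups of points do not overlap.

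Of 6 MAP2K genes, 2 rose, 1 fell and 3 did not pass. MAP2K3 and MAP2K6 encode MKK3 and MKK6, which both phosphorylate p38 kinases. MAP2K3 had 7.75, 7.99 and 8.07 in shPGC-1alpha cells, against 7.06, 7.22 and 7.13 in shGFP cells. All 3 were higher, with shPGC-1alpha replicate 1 the lowest of them, and the difference was 0.80 (SE 0.10, 95% interval 0.57 to 1.03, limma adjusted p 0.00145). MAP2K6 had 5.08, 4.99 and 4.91 in shPGC-1alpha cells, against 6.16, 5.84 and 6.04 in shGFP cells. Here the shPGC-1alpha arrays were the low ones, and the difference was -1.02 (SE 0.10, 95% interval -1.24 to -0.79, limma adjusted p 0.000516). With 1 array left out the differences were 0.73 to 0.90 for MAP2K3 and -1.10 to -0.94 for MAP2K6, and both kept their call each time. MAP2K1, which encodes the ERK kinase MEK1, had 9.72, 9.77 and 9.70 in shPGC-1alpha cells, against 9.33, 9.56 and 9.46 in shGFP cells. The groups did not overlap, and the difference of 0.28 (SE 0.08, limma adjusted p 0.0386) was lost if any 1 array other than shGFP replicate 2 was left out (0.0784 to 0.108). MAP2K2, which encodes MEK2, stood at 0.07, MAP2K4, which serves JNK and p38, at -0.06, and MAP2K5, the ERK5 activator, at -0.08, with 95% intervals from -0.41 to 0.25 over the 3 genes.

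Among 10 MAP kinase genes, 2 rose, 2 fell and 6 did not pass. MAPK6 encodes ERK3, an atypical and short-lived kinase, and had 8.02, 8.10 and 8.05 in shPGC-1alpha cells, against 7.65, 7.71 and 7.71 in shGFP cells. The shPGC-1alpha arrays were all above the controls, by 0.37 (SE 0.06, limma adjusted p 0.00532). RefSeq annotates pseudogenes of MAPK6, and of MAP2K1, MAP2K4, MAPK8IP1, DUSP5, DUSP8 and DUSP12, which may share their probes, so these values are uncertain. MAPK7, or ERK5, the kinase that MAP2K5 activates, had 7.82, 7.74 and 7.81 in shPGC-1alpha cells, against 7.45, 7.60 and 7.49 in shGFP cells. It was higher in all 3, by 0.28 (SE 0.07, limma adjusted p 0.0250), a call lost without shPGC-1alpha replicate 1 or 3 or shGFP replicate 1 or 3 (0.0688 to 0.0824).

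MAPK12, or p38gamma, had 6.53, 6.62 and 6.77 in shPGC-1alpha cells, against 7.08, 6.95 and 6.85 in shGFP cells. All 3 were lower, but the nearest arrays were close, and the difference of -0.32 (SE 0.09, limma adjusted p 0.0465) was lost if any 1 array other than shPGC-1alpha replicate 3 was left out (0.0525 to 0.126) and under both other scalings. MAPK10, or JNK3, known mainly from neurons, had 4.11, 3.93 and 4.69 in shPGC-1alpha cells, against 5.05, 4.88 and 4.99 in shGFP cells. The shPGC-1alpha arrays varied widely around a mean below the guide of 4.43, and the difference was -0.73 (SE 0.18, limma adjusted p 0.0285). This call was lost if any 1 array other than shPGC-1alpha replicate 3 was left out (0.0597 to 0.0860), the highest of its group. MAPK13, or p38delta, had 8.61, 8.47 and 8.52 in shPGC-1alpha cells, against 8.20, 8.28 and 8.38 in shGFP cells; the groups did not overlap, and at 0.25 (95% interval 0.07 to 0.42, limma adjusted p 0.0575) it did not pass. MAPK3, or ERK1, stood at 0.00 (95% interval -0.16 to 0.16). MAPK9, MAPK11, MAPK15 and MAPK4 lay between -0.22 and -0.06.

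Of 5 genes for scaffolds and related transcripts, MAPK8IP3 alone passed. It encodes JIP3, which holds JNK modules together and links cargo to kinesin, and had 6.91, 6.86 and 7.06 in shPGC-1alpha cells, against 7.28, 7.25 and 7.34 in shGFP cells. The 3 shPGC-1alpha arrays were all lower, the difference was -0.34 (SE 0.08, limma adjusted p 0.0170), and the call was lost without shPGC-1alpha replicate 1 or 2 or shGFP replicate 3 (0.0546 to 0.0634). The related scaffolds MAPK8IP1 and MAPK8IP2 stood at -0.01 and 0.12, MAPK1IP1L at 0.13 (95% interval -0.04 to 0.29) and MAP3K7CL at 0.01. The 5 noncoding transcripts and pseudogenes lay between -0.02 and 0.12 and did not pass. Among them MAPK8IP1P2 had 3 probe sets with the same values in every array, which count as 1 signal.

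Of 10 genes of classical MAP kinase phosphatases, 4 rose, 1 fell and 5 did not pass. DUSP5 encodes a nuclear phosphatase of ERK that ERK activity induces. It had 9.43, 9.32 and 9.41 in shPGC-1alpha replicates 1 to 3, against 8.44, 8.50 and 8.43 in shGFP replicates 1 to 3. The groups were separated by a wide gap, and the difference was 0.93 (SE 0.06, 95% interval 0.78 to 1.08, limma adjusted p 0.000159), or 1.91-fold. A second, dimmer probe set of DUSP5 stood at 0.39 (SE 0.19, adjusted p 0.330 over all probe sets), and the mean of both gave 0.66. DUSP7, a cytoplasmic phosphatase of ERK, had 7.39, 7.44 and 7.39 in shPGC-1alpha cells, against 6.86, 6.91 and 6.86 in shGFP cells. It was higher in all 3, by 0.53 (SE 0.06, limma adjusted p 0.00107). DUSP6, its close relative and a common readout of ERK activity, had 7.94, 7.78 and 7.85 in shPGC-1alpha cells, against 7.50, 7.71 and 7.74 in shGFP cells. The groups did not overlap, with the closest arrays 0.05 apart, and the difference of 0.21 (95% interval 0.00 to 0.41, limma adjusted p 0.146) did not pass. DUSP9, the other member with a preference for ERK, stood at -0.19.

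Of the phosphatases that prefer JNK and p38, DUSP10 and DUSP8 rose. DUSP10 had 10.41, 10.40 and 10.34 in shPGC-1alpha cells, against 9.66, 9.66 and 9.69 in shGFP cells. All 3 were higher and neither group spread by more than 0.07, and the difference was 0.71 (SE 0.06, 95% interval 0.57 to 0.85, limma adjusted p 0.000304), or 1.64-fold. DUSP8 had 7.39, 7.24 and 7.29 in shPGC-1alpha cells, against 6.80, 7.06 and 6.82 in shGFP cells. Higher in all 3 by 0.42 (SE 0.09, limma adjusted p 0.0151), it lost its call without shGFP replicate 3 (0.0559). DUSP16, the third of this type, stood at -0.17 (95% interval -0.36 to 0.02) and did not pass. DUSP1, an immediate-early gene whose product acts on p38, JNK and ERK in the nucleus, was the phosphatase gene of this class that fell. It had 10.23, 10.18 and 10.14 in shPGC-1alpha cells, against 10.59, 10.65 and 10.71 in shGFP cells, every array below every control, a difference of -0.47 (SE 0.07, 95% interval -0.62 to -0.31, limma adjusted p 0.00265). Its promoter holds the cyclic AMP response element printed earlier, and so does the listed promoter of DUSP8, which rose. DUSP2 and DUSP4, the related nuclear phosphatases, stood at 0.02 and -0.12, and DUSP4 was dim.

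**Figure D3:**
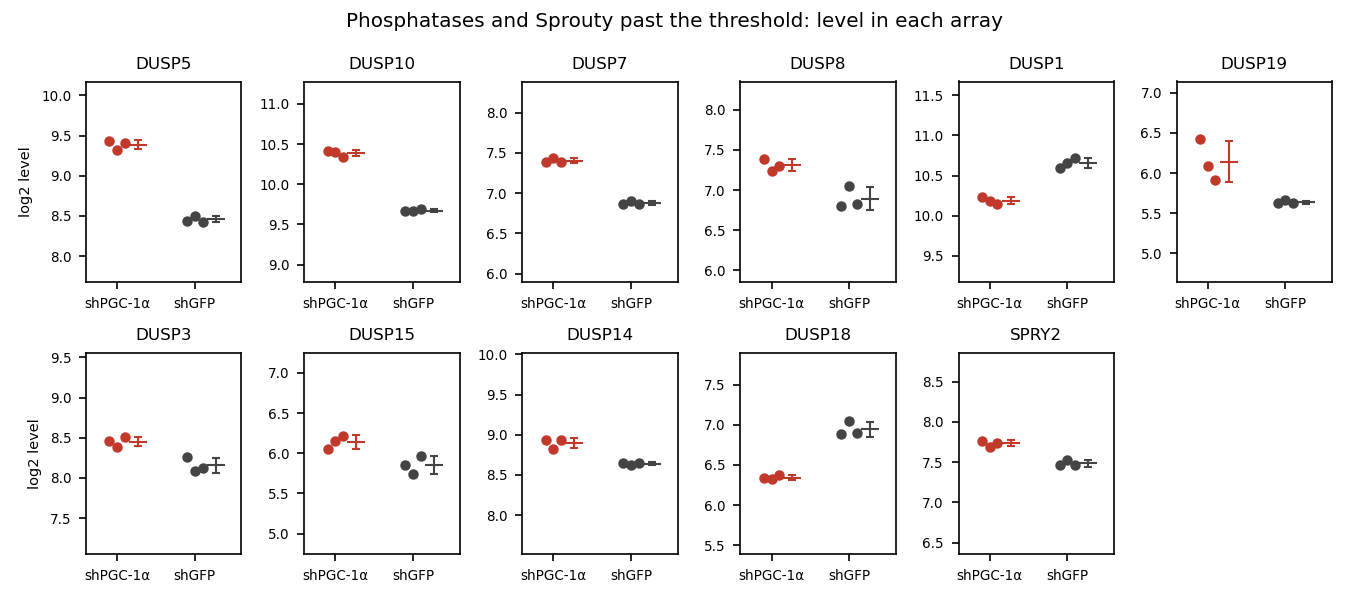
Log2 RMA level (y axis, with the same span in every panel) in each array for the 10 DUSP genes past the threshold and SPRY2, with shPGC-1alpha arrays in red on the left and shGFP arrays in grey on the right. Points are replicates 1 to 3 and the bar beside them is the mean with the SD (n = 3). DUSP1 and DUSP18 were the genes with lower shPGC-1alpha arrays.

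Of 14 atypical DUSP genes, which lack the domain that docks on MAP kinases and have varied substrates, 4 rose, 1 fell and 9 did not pass. DUSP18, which has been found at mitochondria, had 6.34, 6.32 and 6.37 in shPGC-1alpha cells, against 6.88, 7.04 and 6.90 in shGFP cells. The shPGC-1alpha arrays were tightly grouped and all lower, and the difference was -0.60 (SE 0.07, limma adjusted p 0.00120). DUSP19 had 6.42, 6.09 and 5.91 in shPGC-1alpha cells, against 5.63, 5.66 and 5.63 in shGFP cells. The shPGC-1alpha arrays were all higher but spread widely, with replicate 1 the highest, and the difference was 0.50 (SE 0.12, limma adjusted p 0.0265). It was lost without shPGC-1alpha replicate 2 or any 1 of the 3 shGFP arrays (0.0596 to 0.0750). DUSP3, or VHR, which acts on ERK and JNK, had 8.46, 8.39 and 8.50 in shPGC-1alpha cells, against 8.26, 8.09 and 8.12 in shGFP cells, a difference of 0.30 (SE 0.07, limma adjusted p 0.0263). DUSP14 had 8.93, 8.82 and 8.93 in shPGC-1alpha cells, against 8.65, 8.62 and 8.65 in shGFP cells, a difference of 0.25 (SE 0.06, limma adjusted p 0.0270). In both genes all 3 shPGC-1alpha arrays were above all 3 shGFP arrays.

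DUSP15 had 6.05, 6.15 and 6.22 in shPGC-1alpha cells, against 5.85, 5.75 and 5.97 in shGFP cells. Its closest arrays were less than 0.1 apart, and the difference was 0.28 (SE 0.08, limma adjusted p 0.0481). The call of DUSP3 was lost without shPGC-1alpha replicate 1 or 3 or shGFP replicate 2 or 3 (0.0719 to 0.0942), that of DUSP14 if any 1 array other than shPGC-1alpha replicate 2 was left out (0.0628 to 0.0911), and that of DUSP15 if any 1 array other than shGFP replicate 3 was left out (0.0558 to 0.149). The 9 atypical genes not called lay between -0.20 (DUSP22) and 0.11 (DUSP26). DUSP11, which acts on RNA, stood at 0.00 (95% interval -0.17 to 0.16) and DUSP12 at 0.07 (95% interval -0.10 to 0.23). DUSP22 had arrays that did not overlap, at -0.20 (95% interval -0.37 to -0.04, limma adjusted p 0.0845).

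Sprouty proteins restrain signalling from receptor tyrosine kinases to ERK and are induced by it. SPRY2 had 7.76, 7.69 and 7.74 in shPGC-1alpha cells, against 7.46, 7.53 and 7.46 in shGFP cells. All 3 were higher, by 0.25 (SE 0.06, limma adjusted p 0.0274), and the call was lost with any 1 of the 6 arrays left out (0.0524 to 0.0910). SPRY4 and SPRY3 stood at 0.17 (95% interval -0.02 to 0.37) and -0.12 (95% interval -0.32 to 0.07) and did not pass.

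**Figure D4:**
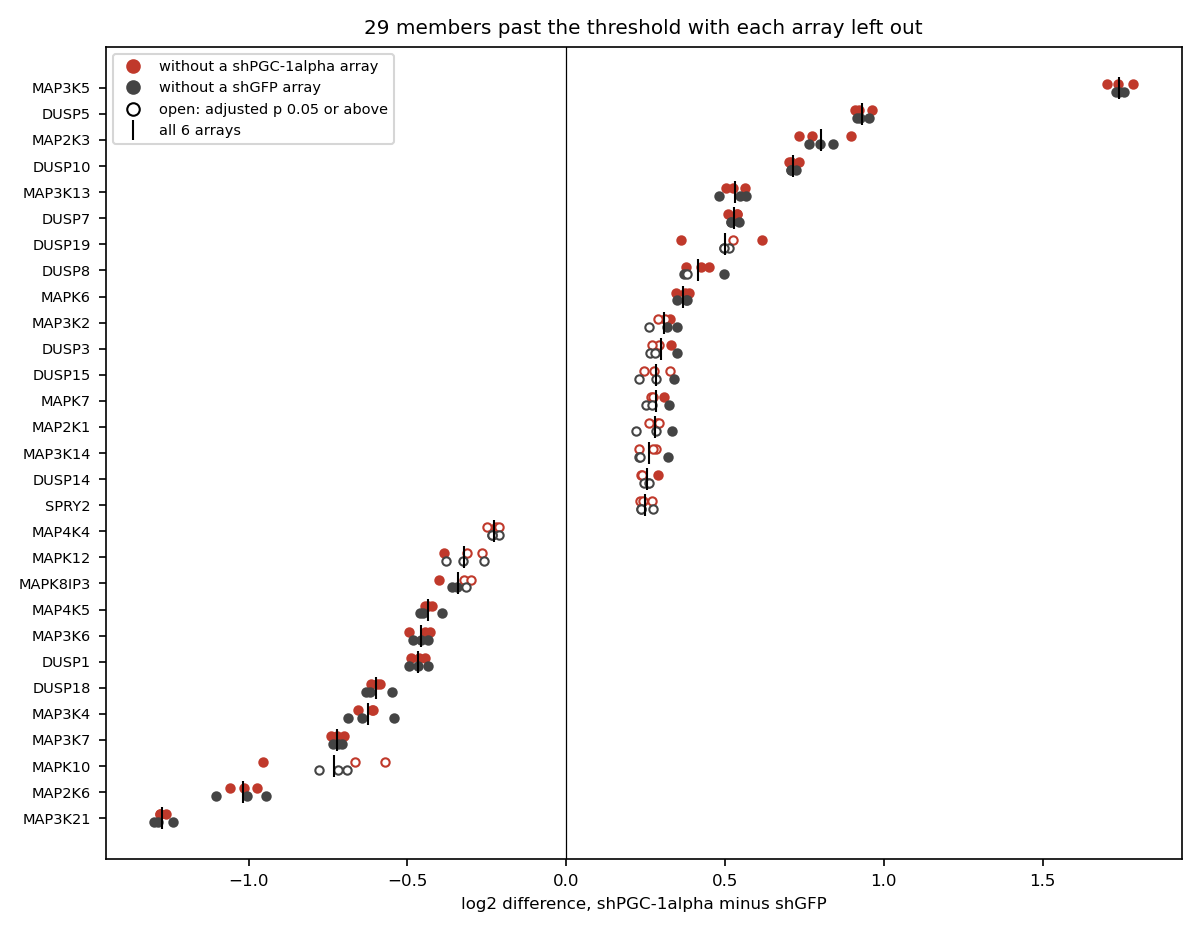
Log2 difference (x axis) of the 29 genes past the threshold with each array left out in turn, red for a shPGC-1alpha array and grey for a shGFP array, beside the value with all 6 arrays (black tick). Filled points have an adjusted p under 0.05 and open points do not. No point crosses 0, and 15 genes have filled points only.

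The rest of the pathway was read from 8 lists of genes that are not among the 72. Each share called stands beside 21.8% of all named genes. It was 24.6% for named protein-coding genes and 26.2% for named genes at or above the 20th percentile. Median levels of the lists ran from 5.62 (growth factor ligands) to 8.91 (ERK-induced transcripts), beside 6.15 over all named genes. Of 26 measured transcripts that ERK signalling can induce, 7 rose and 2 fell (34.6% called), with a median difference of 0.18. FOSL1, a FOS-family partner of JUN, averaged 10.11 in shPGC-1alpha cells and 9.21 in shGFP cells (n = 3 each), a difference of 0.89 (SE 0.10, limma adjusted p 0.000822). IER5, the stress factor ATF3 and cyclin D1 (CCND1) rose by 0.53, 0.51 and 0.64. The 2 that fell were ERRFI1, a feedback inhibitor of the EGF receptor, at -0.27, and the immediate-early factor EGR1, at -0.47, and FOS stood at 0.01 (adjusted p 0.978); these 3 were chosen after their values were seen. The count of genes that fell was 1 without shPGC-1alpha replicate 1 or 3 or shGFP replicate 1, and 0 without shPGC-1alpha replicate 2 or shGFP replicate 2 or 3. Of 17 AP-1, ATF and ternary complex factors, 6 rose and 1 fell (41.2% called), with a median of 0.12. FOSL1, ATF3 and SRF, 3 of the 6 that rose, are also in the list of ERK-induced transcripts, as are FOS and FOSB, so the counts of these lists are not independent. ETS1, a factor that ERK phosphorylates, rose by 0.69, and CREB5 stood at -0.61.

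Upstream of the cascade, receptor tyrosine kinases and their adaptors went both ways, with 5 of 23 higher and 5 lower (43.5% called, median 0.02). The receptors FGFR1, INSR and MET were lower, at -0.70, -0.57 and -0.39, and the collagen receptor DDR1 was higher, at 0.59. The count of higher genes was 3 without shPGC-1alpha replicate 1 or 3 or shGFP replicate 2 or 3. Of 23 growth factor ligands 3 rose and 4 fell (30.4% called, median -0.05). The endothelial growth factors VEGFC and VEGFA and the fibroblast growth factor FGF1 rose by 1.27, 0.50 and 0.48, and PDGFC stood at -0.59. FGF1 was dim, with means of 4.41 in shPGC-1alpha cells and 3.93 in shGFP cells, and 2 ligands were higher with dim genes left out. The count of ligands that fell was 2 without shPGC-1alpha replicate 2 and 1 without shPGC-1alpha replicate 3 or any 1 of the 3 shGFP arrays. Of 25 genes of RAS, RAF and their regulators 3 rose and 3 fell (24.0% called, median -0.08). RASGRP1, which loads RAS with GTP, and RASA3, which has the opposite action, rose by 1.19 and 0.54, while PEBP1, the RAF kinase inhibitor protein, and the GTPase-activating protein RASAL1 stood at -0.72 and -0.86.

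Beside and below the cascade, 3 of 16 other scaffolds and adaptors rose and 4 fell (43.8% called, median 0.07). STK39, a Ste20-family kinase of ion transport and p38 signalling, and STRAP stood at -0.74 and -0.41, and PEA15, which binds ERK, and MINK1, a Ste20-family kinase, at 0.43 and 0.53. With the mean of its probe sets STRAP stood at -0.32 and lost its call (limma adjusted p 0.0529), which left 3 genes lower. Of 5 kinases activated by MAP kinases 0 rose and 2 fell (40.0% called, median -0.16). MKNK2, which phosphorylates the translation factor eIF4E, and MAPKAPK3, a substrate of p38, stood at -0.39 and -0.33. The call of MAPKAPK3 was lost if any 1 array other than shGFP replicate 1 was left out (0.0769 to 0.126), which left 1 gene lower. Among 5 other phosphatases the slingshot phosphatases SSH3 and SSH2, which act on cofilin, fell, at -0.68 and -0.51, and 0 rose (40.0% called, median -0.23).

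**Figure D5:**
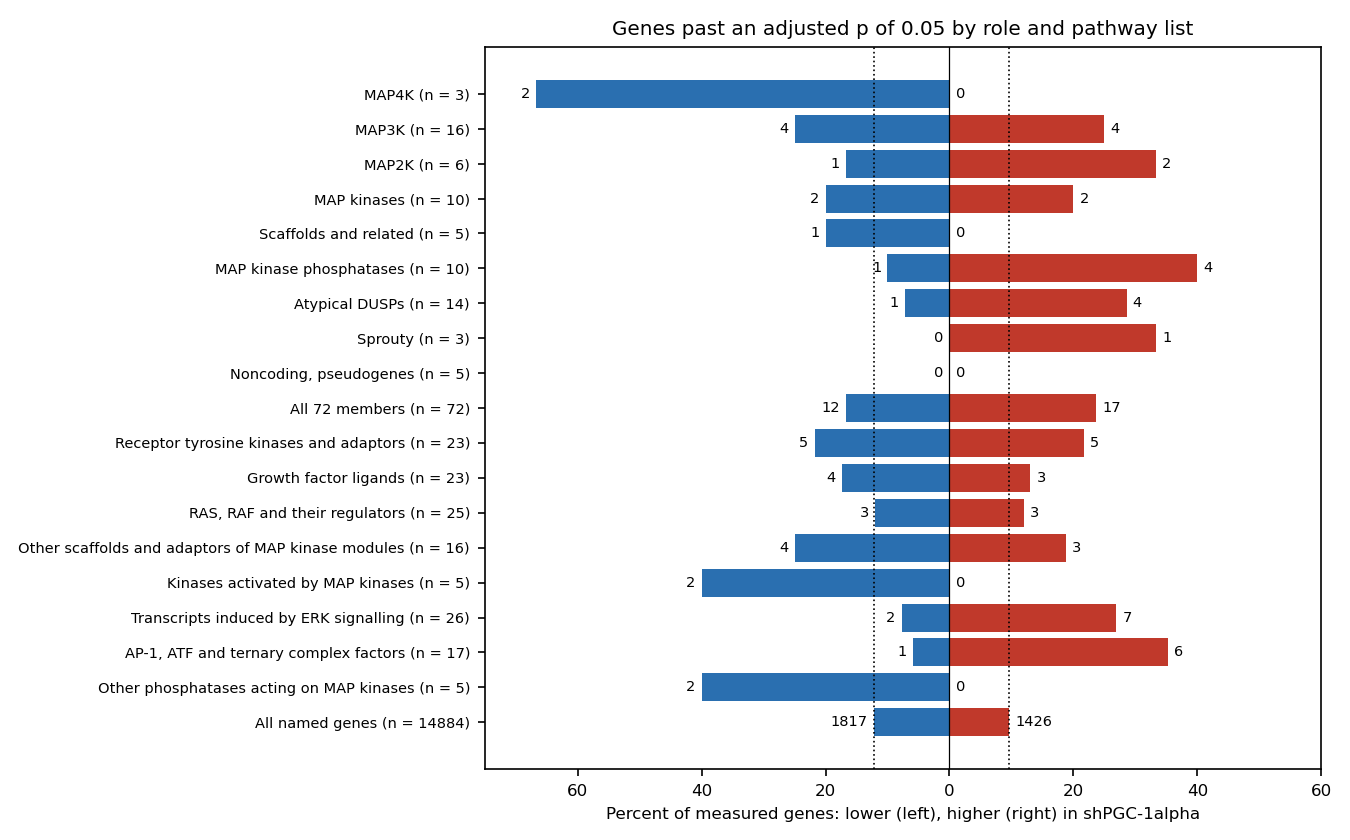
Percent of measured genes (x axis) past an adjusted p of 0.05, lower to the left in blue and higher to the right in red in shPGC-1alpha cells, for each role among the 72 genes and for 8 pathway lists. Numbers at the bars are gene counts, and dotted lines mark 9.58% higher and 12.2% lower over all 14884 named genes. The 10 MAP kinase phosphatases had 4 higher and 1 lower. In the list labelled other phosphatases acting on MAP kinases, the genes measured were SSH1, SSH2, SSH3, STYX and STYXL1. SSH2 and SSH3, the 2 that fell, act on cofilin, so the label does not describe them.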

How the data were processed

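Affymetrix arrays, 6 in all and 3 per group, measured total RNA. The authors deposited log2 expression values for 53617 probe sets, made with RMA in Affymetrix Expression Console, per the submitters' processing notes; program versions and genome build: not given in the sources used here. RMA includes a quantile normalization, which gives the arrays like distributions, so a change shared by most transcripts would be reduced. The values, 0.66 to 13.8, were used as deposited, with no filter. Scanner files and scan batches were not analysed here, and RMA values carry no depth, so the number of arrays limits the precision.

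Probe sets were named through the platform table: 16098 had 1 symbol, 0 had several and 37519 had none. All 16098 matched RefSeq (GRCh38.p14), which gave 14884 genes, 779 of them with several probe sets. Of the 72 cascade genes 6 had several. Groups came from the sample titles.

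limma 3.58.1 in R 4.3.3 (lmFit, eBayes, no block) was fitted over all 14884 genes, with Benjamini-Hochberg adjustment and a threshold of 0.05. Intervals are 95% limma intervals of single genes, not adjusted for the number of genes. The smallest p of an exact permutation test over 3 and 3 arrays is 0.1. The members, roles, lists and motifs were chosen with earlier results of these data known. Named are all members past the threshold with every value, the 2 brightest others per role, those at the ends of a range, and up to 4 genes with the smallest p per list past the threshold; relatives of these and any other gene were named after their values were seen. No list was tested as a set. The script was first tested on simulated data. Alternatives were each array left out, the replicate block, leaving out dim genes, averaging or fitting all probe sets, other scalings, another variance model and array weights.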

Additional observations from a re-analysis of the deposited data

How the results depend on the processing

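Under 14 alternatives, no gene of the 72 changed direction with a call. Fitting and adjusting over all 53617 probe sets gave the lowest counts. Over all named genes 767 were higher and 970 lower, and among the 72 genes 7 were higher and 8 lower. More features were tested there, and standard errors also differed. For the probe sets used for DUSP5 and MAPK1IP1L they were 0.0755 and 0.0819, beside 0.0644 and 0.0711 in the main fit. The part of each in the lower counts was not tested. With the replicate number as a block 10 of the 72 were higher and 10 lower, or 27.8%, beside 18.6% of all named genes. With 1 array left out, 1011 to 1170 named genes were higher and 1301 to 1502 lower, 8 to 12 of the 72 were higher and 8 to 11 lower, and the median difference of the 72 was -0.02 to 0.04. Over all alternatives 20.8% to 44.1% of the fitted cascade genes and 11.7% to 30.7% of all fitted genes passed. Deviations of arrays with the same number correlated at 0.12, 0.09 and 0.02. Since not every pair was above 0.1, the numbers were not taken as pairs, although 5 of 6 arrays correlated best with their own number. Of 43 genes not called, 2 passed in at least 1 alternative (MAPK13 and MAPK4). Signal over background could not be measured.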
